A study of Mus musculus with 8 samples.

Results

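Gene expression in the wild-type mouse utricle was described from 3 RNA-seq libraries of C57BL/6 embryos at E15.5, out of 8 samples in the series. The libraries were chosen by their titles, as wild-type replicates 1, 2 and 3, and are called pools 1, 2 and 3, because each was made from RNA pooled over 7 to 9 mice. The embryos carried no engineered allele and no treatment per the labels. The rest of the series is a 4th wild-type library and 4 libraries from Rest heterozygotes lacking exon 4, and genotypes were not compared. No label says whether the pools came from separate litters, so the spread between them may be biological or technical.

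The utricle is a vestibular organ of the inner ear that senses linear acceleration and head tilt. Its sensory patch, the macula, holds mechanosensory hair cells seated among supporting cells and covered by a gelatinous membrane loaded with otoconia, calcium carbonate crystals built on a protein matrix. Around the macula lie transitional cells and the ion-transporting dark cells. Beneath the epithelium lie mesenchyme, vessels, nerve fibres with their glia, and melanocytes. At this embryonic age hair cells are still being formed from a dividing prosensory epithelium. Per the labels' protocols, the organ was cut free of the surrounding ear and its cells were not sorted, so the libraries hold all of these tissues together. A lower level of a marker in such a bulk sample cannot tell fewer cells of a type from less RNA per cell.

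Levels are given on 2 scales. CPM is a gene's share of the read pairs on genes in that library, scaled to the same total in each, and it serves to compare a gene between pools. TPM divides by the length of the gene's merged exons before that scaling, and it serves to compare genes with each other. Read pairs on genes numbered 23.5, 21.6 and 23.8 M in pools 1, 2 and 3, and 14442 genes, of which 13065 were protein coding, reached 1 CPM in each. The 4th wild-type library, whose strain and age labels read C57BL/7 and E15.6, was left out because of liver and blood RNA. Its summed liver markers stood at 4992 TPM against 36.4, 34.2 and 57.9 TPM in pools 1, 2 and 3. Its summed erythroid markers stood at 30571 TPM against 2863, 2357 and 2981 TPM. Within the 3 pools liver genes such as Alb and Afp were at or near 0, as given below with the other markers.

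Read pairs were spread over many genes. The highest gene took 2.04 ± 0.13% (SD, n = 3) of read pairs on genes, the top 10 took 6.48 ± 0.328%, the top 100 took 20.9 ± 0.718% and the top 1000 took 54.1 ± 1.17%. Ribosomal protein genes held 3.21 ± 0.227%, long non-coding genes 1.48 ± 0.0611% and mitochondrial genes 0.428 ± 0.0356%. Pool 3 was the lowest of the 3 for ribosomal protein genes, at 3.34%, 3.34% and 2.95% in pools 1, 2 and 3, and for mitochondrial genes, at 0.463%, 0.43% and 0.392%. A mean of at least 100 CPM was reached by 2063 genes, and 104 reached 1000 CPM.

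By mean TPM the leading genes were Actb and Otor, with ribosomal protein and mitochondrial genes set apart. The otoconial gene Oc90 came after Gnb1, Tubb5 and Sdc4 and overlapped Sdc4 in level. Actb, which encodes cytoplasmic beta-actin (ENSMUSG00000029580, chromosome 5, 142903115 to 142906754 on GRCm38), stood at 27158, 28831 and 25625 TPM in pools 1, 2 and 3. Otor, which encodes the secreted protein otoraplin (ENSMUSG00000027416, chromosome 2, 143078473 to 143081713), came second at 8383, 11861 and 8775 TPM. No pool's value of Otor reached the lowest value of Actb, and Otor's lowest value lay above every value of the gene below it, so these ranks held in all 3 pools. Otor was highest in pool 2, as were Actb and most of the 25 protein-coding genes with the highest mean TPM.

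The next 2 genes were Gnb1, a G protein beta subunit, at 4939.7, 4941 and 4718 TPM and Tubb5, a beta-tubulin of dividing cells, at 4651, 5071 and 4648 TPM. Their values overlapped, so their order was not resolved, while both lay above all values of the genes below them. Sdc4, a heparan sulphate proteoglycan of the cell surface, had 3987 ± 377 TPM (SD, n = 3). Oc90, the main matrix protein of otoconia (ENSMUSG00000015001, chromosome 15, 65876053 to 65912397), stood at 3595, 4601 and 3372 TPM and, like Otor, was highest in pool 2.

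From Sdc4 to the 25th gene each value range overlapped that of the next gene. In that stretch stood genes for chromatin and growth (Ptma at 3606 ± 407 TPM and the histone gene H3f3b at 2125 ± 187 TPM, SD, n = 3), protein folding and secretion (Hsp90ab1, Kdelr2 and the collagen chaperone Serpinh1, at 3345, 3009 and 2656 TPM) and translation (Eef1a1 and Eef2, at 2720.2 and 2172 TPM). Ubiquitin pathway genes were represented by Ubb and Skp1a, at 2366 and 2194 TPM. Signalling and cell contact genes in the same stretch were the adaptor Ywhae at 2873 TPM, the septin Sept2 at 2832 TPM, the ephrin Efna5 at 2739 TPM and the secreted follistatin relative Fstl1 at 2134 TPM. The selenoprotein gene Selenow and the membrane protein gene Itm2b had 2133 and 2154 TPM. Sox11, a transcription factor of immature progenitors and neurons, was the only transcription factor of the fixed lists among the 25, at 2794, 2649.7 and 2453 TPM. Mest, an imprinted gene expressed from the paternal allele, had 2783, 2476 and 3043 TPM. Car3, which encodes a carbonic anhydrase, was the most uneven of the 25, at 1730, 2883 and 2441 TPM, with pool 1 the lowest.

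**Figure D1:**
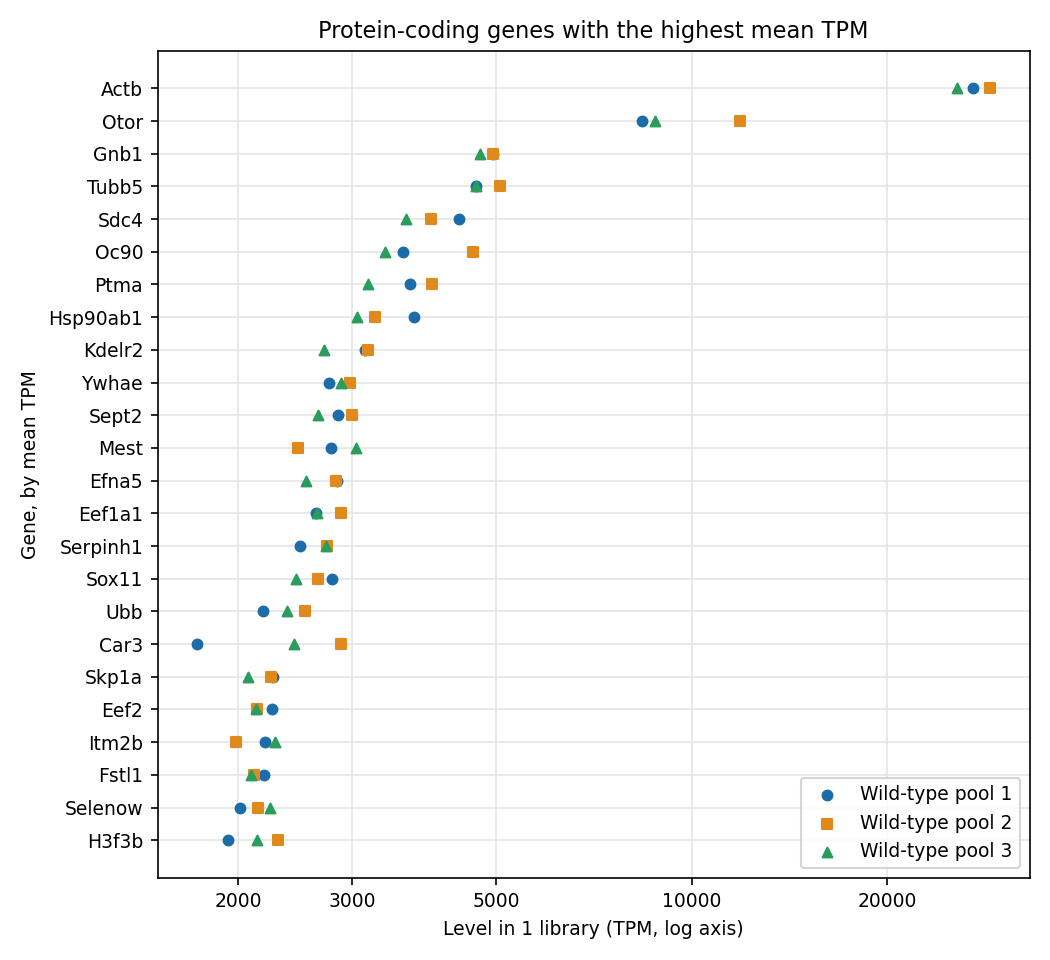
Level in each wild-type pool (x axis, TPM on a log scale) of 24 of the 25 protein-coding genes with the highest mean TPM, ribosomal protein and mitochondrial genes left out (y axis); each symbol is 1 library. Actb and Otor stand apart from the rest, and most neighbours overlap. Most of the genes, among them Actb, Otor, Oc90 and Car3, are highest in pool 2.

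Without the division by length, 15 of these 25 genes stayed among the 25 highest. On the CPM scale the long transcripts Sept2 and Sox11 moved up, at 6335 and 6132 CPM on average. The shorter Otor and Oc90 moved down, to rank 15 and rank 23 of all genes by mean CPM. Among long non-coding genes the highest were Tmem250-ps at 1725 ± 57.3 TPM and Gm10076 at 1277 ± 256 TPM (SD, n = 3). Tug1, a nuclear long non-coding RNA, followed at 1196 ± 79.8 TPM, and Malat1, another nuclear RNA, stood at 287, 199 and 215 TPM, highest in pool 1. The remaining 6 of the 10 highest, Gm15564, B930095G15Rik, 2410006H16Rik, Cct6a, 2500004C02Rik and Gm17066, lay between 229 and 694 TPM. Cct6a, a chaperonin subunit gene, is in this group because the annotation gives it a non-coding class. Of the mitochondrial genes mt-Nd1, a complex I subunit, was highest at 4361 ± 206 TPM.

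Hair cell genes were present almost in full. Of 30 markers, 29 reached 1 CPM in each pool, and Fgf21, a secreted growth factor, averaged 0.843 CPM. The highest was Acbd7, which encodes a small acyl-CoA-binding protein, at 379, 355 and 318 TPM in pools 1, 2 and 3. Pou4f3, the transcription factor on which hair cell maturation and survival depend, stood at 187, 147 and 185 TPM, and Smpx, a small cytoskeletal protein gene linked to hearing loss, at 138, 129 and 124 TPM. These 3 did not overlap each other in level. Myo6, the minus-end-directed myosin of the hair bundle base, followed at 116, 95.2 and 99 TPM.

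Atoh1, which commits cells to the hair cell fate, stood at 52.4, 46.9 and 86.1 TPM, highest in pool 3, and Gfi1, a repressor acting after it, was also highest there at 15.57, 12.6 and 21.9 TPM. Among genes of the mechanotransduction apparatus, Lhfpl5 had 84.3, 76.8 and 80 TPM, the tip link genes Pcdh15 and Cdh23 had 6.34, 5.35 and 5.61 and 2.24, 1.06 and 1.59 TPM, and the channel genes Tmc2 and Tmc1 had 4.54, 3.62 and 3.6 and 3.05, 2.17 and 3.26 TPM. The channel and tip link genes were therefore at or below 6.34 TPM in every pool, a scale that divides by length. Without that division Pcdh15, Cdh23, Tmc2 and Tmc1 averaged 38.4, 7.73, 3.53 and 5.69 CPM, and Atoh1 36.7 CPM. Otof, the calcium sensor of the hair cell synapse, stood at 79.4, 76.1 and 72.7 TPM, and Myo7a, a myosin of the hair bundle, at 19.5, 18.9 and 17.7 TPM. Calb2 and Ocm, calcium-binding proteins of mature hair cell subtypes, stood at 81.5, 75.4 and 70.9 TPM and 8.51, 18.6 and 6.97 TPM, and Ocm, with a mean of 2.34 CPM, was highest in pool 2. The summed level of the list was 1453, 1289 and 1334 TPM, of which Acbd7 gave 25.8%.

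Supporting cell and prosensory genes summed to 4519.9, 3904 and 4079.6 TPM, and all 25 averaged 1 CPM or more. Sox9, a transcription factor of otic epithelium and also of cartilage, gave 37.8% of the sum at 1804, 1450 and 1471 TPM. Jag1, a Notch ligand of the prosensory domain, had 676, 489.5 and 536 TPM, with pool 1 above the other pools. The helix-loop-helix inhibitors Id3 and Id2 stood at 439.7, 498 and 488 TPM and 265, 289.6 and 247 TPM. Sox2, which marks prosensory and supporting cells, stood at 76.8, 51.6 and 49.4 TPM and was highest in pool 1. The cell cycle inhibitor gene Cdkn1b followed Id2 at 256, 208 and 177 TPM. Fgfr3, a receptor marking supporting cells of the cochlea, was the lowest of the list at 0.489, 0.344 and 0.777 TPM.

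Genes of otoconia and the overlying membrane summed to 5899, 6523 and 5379 TPM, the second highest of the 20 cell type lists, with Oc90 alone giving 65%. The sum was highest in pool 2, as Oc90 was. Of the 15 members averaging 1 CPM or more, 11 were highest in pool 1, 73.3% against 31.3% of all 15196 such genes. Pool 2 was highest for 2 of them, 13.3% against 25.6%. Past 2-fold between pools was 1 of the 15, 6.67% against 8.7%. Otol1, the collagen-like otolin that binds Oc90 protein, had 690.4, 587 and 703 TPM. The membrane glycoprotein gene Tectb had 567, 465 and 413 TPM and its partner Tecta 78.7, 72.5 and 74.3 TPM. Sparcl1, a secreted matrix protein gene, had 458, 416 and 392 TPM. Otop1, a channel required for otoconia, stood at 65.5, 55.7 and 60.1 TPM. Nox3, an oxidase required for otoconia, differed between the pools, at 20.6, 6.59 and 3.1 TPM, with pool 1 the highest. Ceacam16, a tectorial membrane protein gene of the cochlea, averaged 0.059 CPM, the only member below 0.5 CPM.

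Markers of dark and transitional cells summed to 752, 692 and 694 TPM, and Sparcl1, shared with the previous list, gave 59.2%. Next came Atp1b2, a sodium pump subunit gene, at 69.3, 88.2 and 109.6 TPM, Lmx1a, a transcription factor of non-sensory otic epithelium, at 81.2, 73 and 65.3 TPM, and Meis2 at 56, 42.1 and 50.2 TPM. Potassium secretion genes were low, with Kcne1 at 10.5, 19.2 and 16.7 TPM and its channel partner Kcnq1 at 2.83, 3.04 and 4.11 TPM. Pool 1 differed in a small set of this list. Foxi1, a transcription factor of ion-transporting cells of the endolymphatic sac, stood at 12, 0.277 and 0 CPM in pools 1, 2 and 3, where the 0 allows up to 0.126 CPM (3 read pairs, counting error only). The proton pump subunit genes Atp6v1b1 and Atp6v0a4, which Foxi1 is known to control in kidney, stood at 4.64, 1.16 and 1.47 CPM and 2.6, 0.74 and 0.881 CPM. Pax8, an otic and kidney transcription factor of another list, stood at 1.7, 0.0925 and 0.0839 CPM. All 4 were highest in pool 1, whereas Slc26a4, the anion exchanger of endolymphatic epithelium, was lowest there at 21.5, 24.5 and 29.8 CPM. Of the 17 list members, 9 were highest in pool 1, 52.9% against 31.3% of the 15196 genes averaging 1 CPM or more. Past 2-fold were 6, 35.3% against 8.7% of those genes and 26.3% of those at 1 to 5 CPM. Of these 6, 5 were highest in pool 1, among them Otx2 and Wnt4, against 390 of the 15196 genes. Foxi1, Atp6v1b1, Atp6v0a4, Pax8, Otx2 and Wnt4 are named outside the naming rule, after their values were seen.

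The periotic mesenchyme and fibrocyte list had the highest sum, 13397, 18442 and 14738 TPM, of which Otor gave 62.3%. Coch, which encodes cochlin, a secreted matrix protein of inner ear fibrocytes, stood at 1749, 2138 and 1939 TPM. Coch, Otor and Car3 were all highest in pool 2. The collagen genes Col3a1, Col1a2 and Col1a1 had 282, 277 and 306 TPM, 257, 249 and 243 TPM and 225, 93.7 and 151 TPM, and Col1a1 was highest in pool 1. Pou3f4, a transcription factor of otic mesenchyme, was more even at 94.3, 109.7 and 108 TPM. Tcf21 was the only member below 0.5 CPM.

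The list of cartilage genes of the otic capsule summed to 3204, 2920.2 and 3297 TPM. Sox9, shared with the supporting cell list, gave 50.2%, and the tissue that the reads of this list came from was not tested. Cnmd, chondromodulin, had 622, 611 and 528 TPM, and Col9a1 had 321, 429 and 689 TPM. Genes of mature cartilage matrix were much lower, with Acan, aggrecan, at 1.94, 0.856 and 1.05 TPM, Comp at 1.03, 0.718 and 1.82 TPM and Matn1 at 16.2, 4.51 and 7.21 TPM. Col2a1, the main collagen of cartilage, had 115, 121 and 159 TPM. Of 10 bone markers, 5 reached 1 CPM in each pool and 3 averaged below 0.5 CPM, Bglap and Bglap2, which encode osteocalcin, and Phex. Spp1, osteopontin, was the highest bone marker at 110.2, 46.4 and 45.5 TPM, with pool 1 above the rest, and Sp7, the bone-forming factor osterix, had 0.896, 0.579 and 0.575 TPM.

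Neuronal genes of the vestibular ganglion were present and gave the largest median deviation of any cell type list in a single pool, described below with the other lists. The list summed to 784, 672 and 1137 TPM, with pool 3 above the other pools. The neurofilament genes Nefm and Nefl stood at 169, 141 and 180.3 TPM and 124, 126 and 187 TPM, and Sncg, a synuclein of sensory neurons, at 109, 84.1 and 155 TPM. Isl1, shared with the supporting cell list, had 147, 119.6 and 131 TPM. Some members differed more, with Prph, peripherin, at 16.5, 9.84 and 90.5 TPM, Tubb3, neuronal tubulin, at 35.7, 29.6 and 123 TPM and Stmn2 at 7.12, 4.86 and 28.3 TPM. All 3 were lowest in pool 2 and highest in pool 3. Neurog1 and Eomes, factors of early neuroblasts, averaged 0.0756 and 0.014 CPM.

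Schwann and satellite glia markers summed to 2405, 2125 and 2244 TPM. Fabp7, a fatty acid-binding protein of glial precursors, led at 1104, 1012 and 1047 TPM and gave 46.7%, followed by Cryab, Cnp and Ncam1 at 349.8, 299.5 and 179.5 TPM. None of these 4 is restricted to glia. Markers closer to the lineage were lower, with the receptor Erbb3 at 98.1, 89.1 and 82.8 TPM, Sox10 at 47.8, 49.6 and 59 TPM and Foxd3 below 0.5 CPM. Melanocyte markers summed to 85.6, 112 and 90.5 TPM. Kit was even at 28.3, 28 and 29.8 TPM, while Mitf, the melanocyte master regulator, and Dct, a pigment enzyme gene, were highest in pool 2 at 11.6, 20.9 and 11.1 TPM and 5.55, 11.2 and 7.24 TPM. Pmel and Slc24a5, of the pigment organelle, had 22 and 11 TPM, and Mlana and Gpr143 averaged below 0.5 CPM.

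Vessels and resident immune cells were detected throughout. All 16 endothelial markers averaged 1 CPM or more and summed to 296, 354 and 377 TPM, led by the junction genes Cldn5 at 50, 61.8 and 72.7 TPM and Esam at 50.9, 59.7 and 57.6 TPM, with Egfl7 and Eng at 39.1 and 34.8 TPM. Pericyte and smooth muscle markers summed to 191, 211 and 234 TPM, of which Rgs5, a pericyte gene, gave 53.5%. Pdgfrb, Kcnj8 and Acta2 followed at 26.1, 13 and 12.4 TPM, and Cnn1 was below 0.5 CPM. All 16 macrophage and leukocyte markers reached 1 CPM in each pool. Their sum was 473, 632 and 549 TPM, with the complement genes C1qb and C1qa at 125, 138 and 132 TPM and 36.4, 64.5 and 50.8 TPM and Lyz2, lysozyme, at 83.5, 128 and 103 TPM. Tyrobp, an immune receptor adaptor, had 70.9 TPM.

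Blood RNA was a visible share of the libraries. The haemoglobin genes Hbb-bs, Hbb-bt, Hba-a1 and Hba-a2 had 817, 723, 612 and 435 TPM, and pool 2 was lowest for each. The 2 members of each pair are near-identical copies, so the split between them is uncertain. Of the embryonic globin genes, Hbb-y and Hba-x had 65.6, 42.5 and 72.4 TPM and 32.9, 23.4 and 46.8 TPM, and Hbb-bh1 averaged 0.292 CPM. Skeletal muscle genes summed to 195, 222 and 334 TPM, led by Acta1 at 47.7, 62.1 and 115 TPM, Mylpf at 39.4, 50 and 62 TPM and Actc1 at 37.2, 34.2 and 50 TPM. Myog, a muscle differentiation factor, had 18 TPM, and the muscle genes Tnnc2, Myod1, Mymk and Myf6 averaged below 0.5 CPM.

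Defining markers of liver and several of brain were at or near 0, while markers of surface epithelium were mixed. Of 16 liver markers, 4 had no read in any pool, Apob, Hnf4a, Serpina1a and Serpina1b, which allows up to 0.0435 CPM (3 read pairs over the 3 pools, counting error only). A further 6 averaged below 0.5 CPM, among them Alb at 0.0154 and Afp at 0.0448 CPM. The highest by mean were Vtn, Ttr, Apoa2 and Rbp4. Vtn, which is also a pericyte gene, stood at 8.25, 3.8 and 19.8 TPM and overlapped Ttr at 11.8, 5.81 and 12.3 TPM, which was above it in pools 1 and 2. Of 13 brain markers, 7 averaged below 0.5 CPM, including the cortical factors Tbr1 and Emx1 and the glial factors Olig1 and Olig2. Gad1, a GABA-synthesis enzyme, was the highest at 12.9, 12.6 and 13.5 TPM, and Dlx1 and Gad2 had 12.1 and 2.83 TPM. Of 12 keratinocyte markers, 5 averaged 1 CPM or more and 4 below 0.5 CPM. They were led by Perp, a desmosomal protein gene of many epithelia, at 68.8, 60.5 and 70.1 TPM and Krt10 at 34.7, 28.9 and 37.9 TPM, while Trp63, Dsg3, Dsc3 and Krtdap were the 4 lowest. Krt15 and Krt5 had 8.28 and 2.3 TPM. The cochlear list was led by genes that the utricle also uses, Gata3 at 99.9, 87.7 and 103 TPM, Lgr5 at 33.4, 31.6 and 34.2 TPM, Smad3 and Bmp4. Slc26a5, prestin of cochlear outer hair cells, averaged 0.028 CPM and Insm1 0.143 CPM.

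**Figure D2:**
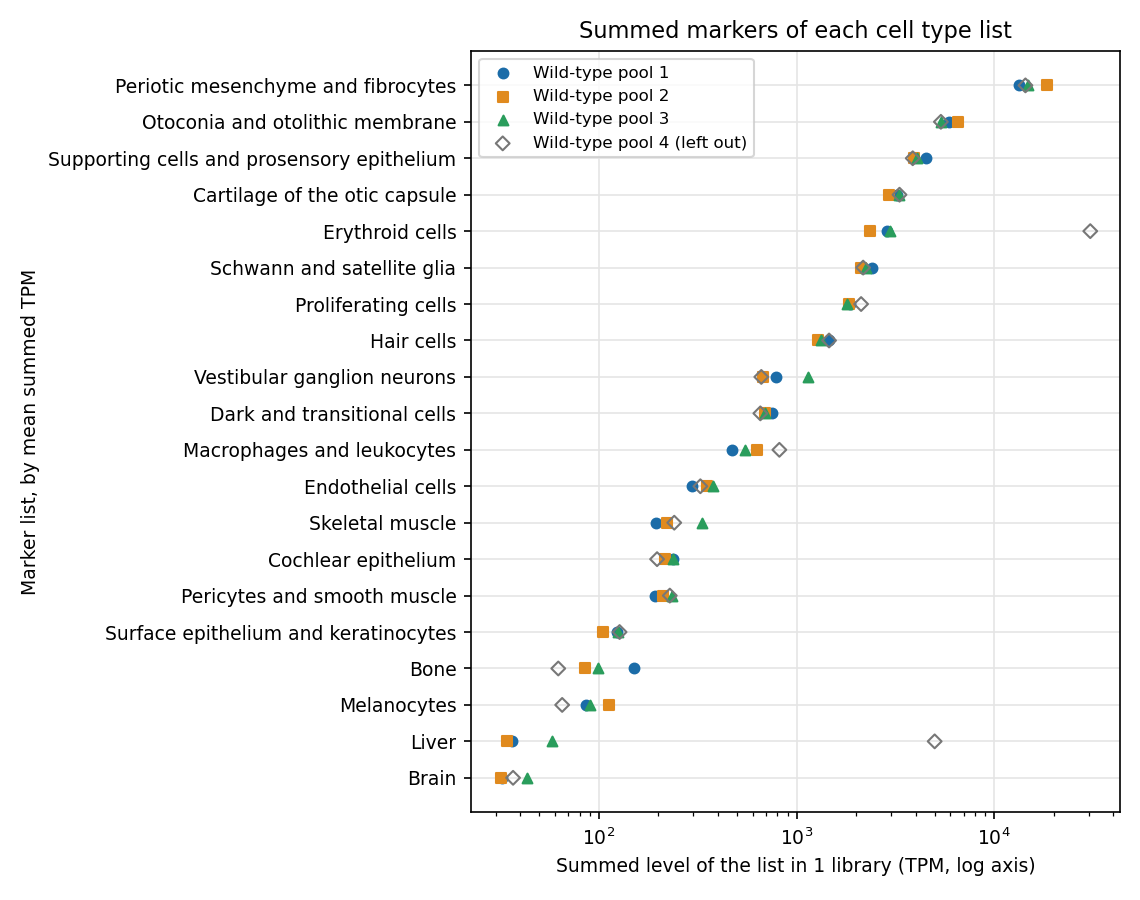
Summed TPM of the markers of each of 20 cell type lists (y axis) in each library (x axis, log scale). Filled symbols are the 3 pools described and open diamonds the 4th wild-type library, which stands apart at the liver and erythroid lists.

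A list's sum depends on how many genes it has and on its strongest member, so the order of lists is not an order of cell numbers. Over all 20 lists, 262 of 330 marker genes reached 1 CPM in each pool. Cell cycle genes had the most even of the 20 sums, 1835 ± 26.1 TPM (SD, n = 3). Rrm2, which makes DNA precursors, had 287, 295 and 282 TPM, Hmgb2 245, 249 and 233 TPM and the mitotic cyclin gene Ccnb2 192, 215 and 202 TPM. Tyms, thymidylate synthase, had 139.7, 119 and 125 TPM. Mki67, the proliferation antigen, stood at 36.2, 26.9 and 23.6 TPM, highest in pool 1.

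Transcription factor families showed a few dominant members. In the Sox family, Sox11 and Sox9, at 2632 and 1575 TPM, stood far above the next members, Sox2 at 59.2 ± 15.2 TPM and Sox10, a glial and otic factor, at 52.1 ± 6.01 TPM (SD, n = 3), whose values overlapped. Sox14 and Sry had no read. Of the Eya, Dach, Pax and related genes, the otic gene Eya1 had 57.5, 55.9 and 63.7 TPM and Six2 24.8 TPM. Pax2, an otic placode factor, was low at 6.16, 4 and 5.33 TPM. Of the otic regional factors, Tbx3, Nr2f2, Gata3, Dlx5, Lmx1a and Hmx2 had 165, 119, 96.9, 88.8, 73.2 and 64.6 TPM. Tbx3, Nr2f2 and Gata3 were separated without overlap. Hox genes, which pattern the trunk and hindbrain, were nearly silent: 1 of 39 averaged 1 CPM, Hoxd8 at 1.28 CPM, 15 had no read in any pool (up to 0.0435 CPM), and Hoxa2 had the highest mean length-adjusted level at 2.14, 1.94 and 1.44 TPM, overlapping Hoxd8 at 2.44, 0.657 and 1.92 TPM, which was above it in pools 1 and 3.

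Signalling families also had a few dominant members. In the Notch pathway, which separates hair cells from supporting cells, Jag1 gave 85.6% of the summed ligand TPM. Dll1, the ligand made by new hair cells, had 9.67, 5.83 and 9.58 TPM, and the non-canonical ligands Dlk2 and Dlk1 had 52.9, 41.3 and 52.2 TPM and 17, 18.2 and 24.5 TPM. Among the receptors Notch2 gave 94.6% at 238, 272 and 265 TPM, against 9.18, 6.55 and 9.94 TPM for Notch3, a receptor of mural cells, and 6.11, 4.69 and 4.53 TPM for Notch1, a receptor known from hair cell formation. Of effectors and modulators, the glycosyltransferase gene Mfng led at 135, 117 and 126 TPM, followed by the repressor genes Heyl at 75.8, 62.2 and 65 TPM and Hey1 at 48.5, 53.5 and 76.5 TPM. Hes5, a target in supporting cells, had 8.15, 15.2 and 15.2 TPM. Among the Id genes Id3, Id2 and Id1 had 475, 267 and 50 TPM without overlap.

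Bmp3, an atypical member that opposes BMP signalling, gave 68.9% of the BMP ligand sum at 623, 467 and 499 TPM, followed by Gdf11 at 173, 141 and 129 TPM and Bmp7 at 29.2, 36.1 and 48.3 TPM. Bmp4, which marks the cristae and edges of sensory patches, had 14.3, 19.5 and 24.4 TPM. On the antagonist side Fstl1 gave 96.9%, and Sostdc1, a BMP and Wnt inhibitor, was high in pool 1 only at 77.3, 28.4 and 26.7 TPM. Bmper had 7.15, 16.5 and 10.2 TPM. Of the FGF ligands Fgf10, Fgf9 and Fgf3, all with roles in otic growth, had 68.3, 60.3 and 66.5, 32.7, 40.1 and 30.1 and 25.4, 28.3 and 36 TPM. Their receptors lay closer together, with the decoy receptor Fgfrl1 at 24.7 ± 3.78 TPM, Fgfr2 at 23 ± 4.82 TPM and Fgfr1 at 16.3 ± 0.952 TPM (SD, n = 3), the first pair overlapping.

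Wnt ligands were led by Wnt5a, a planar polarity signal, at 48.1, 54.3 and 48.7 TPM, Wnt3 at 26.5, 68.2 and 36.6 TPM and Wnt7a at 10.7, 13.6 and 13.8 TPM, and Wnt3 was highest in pool 2. Secreted antagonists stood higher, with Sfrp1 at 479, 471 and 501 TPM, Dkk3 at 199, 165 and 160.4 TPM and Wif1 at 87.4, 131 and 98.7 TPM. In the retinoic acid pathway the retinaldehyde reductase Dhrs3, the synthesis enzyme Aldh1a3 and the carrier Crabp2 had 733, 582 and 531 TPM. The degrading enzyme Cyp26b1, a marker of the striola of the macula, had 26.5, 20.2 and 25.5 TPM. Insulin-like growth factor genes were led by the binding proteins Igfbp4, Igfbp2 and Igfbp5, at 182, 201 and 319 TPM, 96.7, 214 and 248 TPM and 196, 172 and 175 TPM. Of the neurotrophins, Ntf3 had 60.5, 48.3 and 57.8 TPM and Bdnf, made by vestibular hair cells, 28.3, 24.4 and 26.4 TPM, while their receptors Ntrk3 and Ntrk2, expressed by neurons, had 1.06 and 2.17 TPM and Ngfr had 5.32 TPM. The heparin-binding growth factor genes Ptn and Mdk had 1663 and 1585 TPM beside their co-receptor Sdc4.

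**Figure D3:**
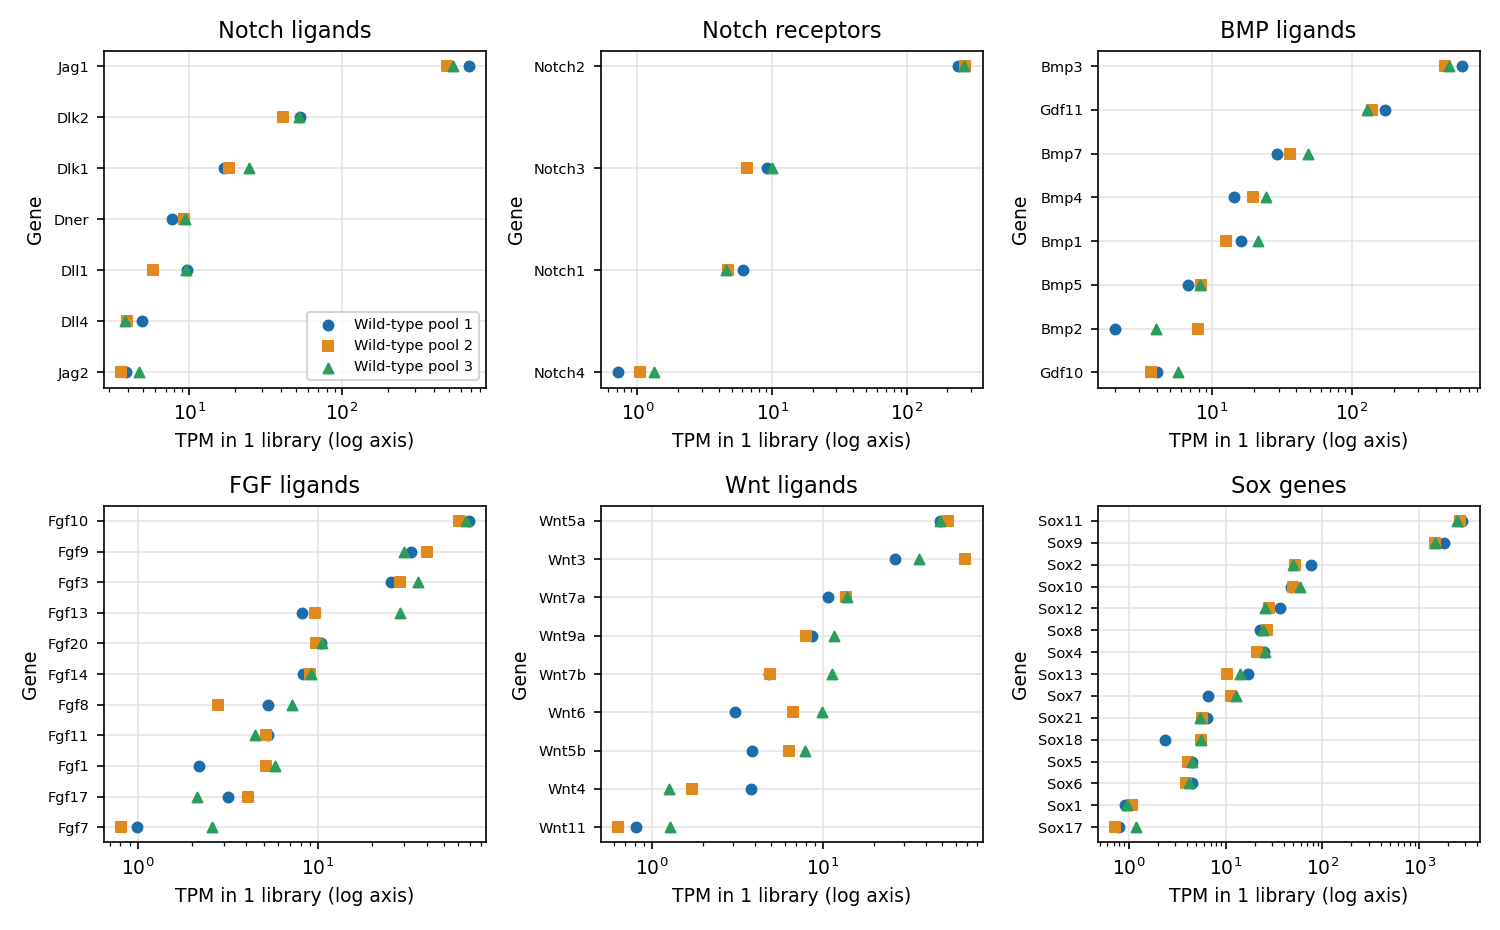
TPM in each pool (x axis, log scale, each symbol 1 library) of the members with a mean of at least 1 CPM in 6 gene families. Jag1, Notch2, Bmp3, Sox11 and Sox9 stand far above the rest of their families in all 3 pools, while Fgf13, Wnt3, Bmp2 and Wnt4 differ between pools.

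Adhesion, junction and matrix families were led by a few members each. The simple epithelium genes Epcam, Krt18 and Krt8 had 841, 858 and 943 TPM, 825, 799.9 and 782 TPM and 127, 146 and 134 TPM. Of the tight junction claudins, Cldn3, Cldn7 and Cldn6 led at 412, 318 and 232 TPM, and the deafness gene Cldn14 had 12.4 TPM. Cadherins were led by Cdh4, Cdh3 and Cdh2 at 128, 99.8 and 92.4 TPM. The gap junction genes Gja1, Gjb2 and Gjb6 led the connexins at 120.1, 105 and 264 TPM, 82.3, 90.4 and 106 TPM and 41.3, 58.7 and 128 TPM, and pool 3 was highest for each. Laminins were led by Lamb1, Lama4 and Lamc1 at 67.4, 21 and 20.3 TPM. Collagens were led by Col9a1, Col3a1 and Col1a2, whose values did not overlap. Of the tubulins, Tuba1a and Tuba1b followed Tubb5 at 2109 and 1250 TPM, and of the actin group Actg1, the second cytoplasmic actin, and Tmsb10, a thymosin, followed Actb at 1393 and 937 TPM.

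Genes whose human counterparts cause deafness were nearly complete in this vestibular organ. Of 99, 92 averaged 1 CPM or more and 91 reached it in each pool. The highest were Coch, Actg1 and Ednrb, an endothelin receptor of melanocytes and glia that stood at 691, 402 and 384 TPM with pool 1 above the rest. Members below 0.5 CPM included Gipc3, Pax3, Ceacam16 and Dspp. Rest, the repressor of neuronal genes that the series is about, stood at 60.3, 57 and 62.8 TPM, and its partners Hdac1 and Hdac2 at 181 and 135 TPM. Ptbp1, a splicing repressor of non-neuronal cells, had 161, 163 and 181 TPM, and Srrm4, the splicing activator that acts on Rest, 6.42, 4.46 and 6.02 TPM.

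Imprinted genes, many of them high in embryonic tissue, were led by Mest, Grb10 at 555 TPM and Impact at 256 TPM, and Mest gave 62.9% of their sum. Immediate early genes, which can rise during dissection, were low except Btg2 at 549, 481 and 449 TPM and Ier2 at 81.2, 81.1 and 99 TPM. Jun had 25, 24.4 and 34.3 TPM and Fos 4.21, 1.32 and 1.21 TPM. Genes of both sexes were present in every pool, with the Y-linked Ddx3y at 46.5, 43.7 and 45 TPM, Uty at 24, 16.5 and 18 TPM and Eif2s3y at 16.6, 25.4 and 20.6 TPM and the inactive X transcript Xist at 4.51, 2.96 and 2.52 TPM.

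The 3 pools were close to each other. Across the 15196 genes with a mean of at least 1 CPM, Pearson's r of log2(CPM + 1) was 0.988 for pools 1 and 2, 0.983 for pools 1 and 3 and 0.987 for pools 2 and 3. The points are genes of shared libraries and are not independent. The median gene differed by 0.18, 0.20 and 0.18 on the absolute log2 scale between the same pairs, or 1.13-fold, 1.15-fold and 1.13-fold. Pools 1 and 3 were the most distant pair. The common biological coefficient of variation, estimated by edgeR from the 3 libraries, was 0.17, and with pool 3, 2 or 1 left out it was 0.146, 0.191 and 0.159. Relative to the variance that counting alone gives (Poisson), the median variance between pools was higher by a factor of 2.97 for genes at 1 to 5 CPM and 16.4 at 100 to 1000 CPM. The median relative SD fell from 23.9% at 1 to 5 CPM to 8.36% at 20 to 100 CPM and 5.99% at 100 to 1000 CPM.

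Of the 12 most even genes at 20 CPM or more, Exosc7, a subunit of the RNA exosome, stood at 93, 93 and 92.9 CPM, Brms1, a chromatin repressor subunit, at 27.7, 27.6 and 27.7 CPM and Nae1, which activates the ubiquitin-like protein NEDD8, at 143, 143 and 143 CPM. Cct5, a chaperonin subunit, Srpk1, a splicing kinase, and Gabarap, an autophagy protein, had 507, 683 and 289.5 CPM on average. The other 6 of the 12 were Ubtd2, Ensa, Gcnt1, Acbd5, Ppp4r2 and Arl6ip1. They were picked for low spread over 3 values, so their evenness is a description.

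Few genes of moderate level differed by 2-fold. Of 15196 genes, 1322 had a highest pool over 2-fold above the lowest, 8.7%, and most of these were low: at 1 to 5 CPM the share was 26.3%, at 20 to 100 CPM 1.83%, and of 104 genes above 1000 CPM none passed. Leaving out pool 1, 2 or 3 left 604, 829 and 554 genes. These counts come from 2 libraries each and from genes filtered anew on them, so they are not on equal terms with 1322. Pool 3 was the highest in 706 of the 1322, 4.65% of all genes. At a mean of at least 20 CPM, 116 of 7530 genes passed, 1.54%. Pool 3 was highest for 96 of these, 1.27%, pool 1 for 14, 0.186%, and pool 2 for 6, 0.0797%.

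The genes that differed most fell into sets by pool. Slc6a13, a GABA transporter of meninges and perivascular fibroblasts (ENSMUSG00000030108, chromosome 6, 121300227 to 121337733), stood at 3.96, 8.6 and 56.6 CPM in pools 1, 2 and 3. Ptgds, the prostaglandin D synthase of the same tissues (ENSMUSG00000015090, chromosome 2, 25466709 to 25470046), stood at 126, 333 and 1527 CPM, a ratio of 12.1 between highest and lowest. Of neuronal genes the 12 most variable held Prph, Stmn2 and Tubb3, at 9.23, 5.55 and 50.5 CPM, 11.1, 7.67 and 44.3 CPM and 18.6, 15.58 and 64.3 CPM. In the 4th wild-type library these 5 genes stood at 5.3, 73.5, 3.29, 5.79 and 14 CPM, so their high level was seen in pool 3 alone of the 4. Gja1, Gjb6 and Thbd, thrombomodulin, shared this pattern at 344, 304 and 757 CPM, 30.9, 44.3 and 95.9 CPM and 27.5, 25.8 and 72.3 CPM, against 214, 35.4 and 24.1 CPM in the 4th library.

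A second set was high in pool 3 and also in the 4th library. The store-operated calcium sensor gene Stim2 stood at 16.8, 37 and 123 CPM in pools 1, 2 and 3 and 137 CPM in the 4th library. Tprgl, a presynaptic regulator gene, stood at 14.3, 38 and 103 and 90.8 CPM, and Cmas, a sialic acid enzyme gene, at 11.1, 14 and 52.5 and 63.5 CPM. Odc1, the first enzyme of polyamine synthesis, stood at 14.6, 21.5 and 61.1 and 65.7 CPM. Glrx5, an iron-sulphur cluster gene, and Tmem165, a Golgi transporter gene, completed the 12 most variable, at 8.13, 19.9 and 33.1 and 52.6 CPM and at 17.5, 12.7 and 46.6 and 41.1 CPM.

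Of the 96 genes highest in pool 3, 75 were also above pools 1 and 2 in the 4th library and 21 were not. Of all 7530 genes, 35% were above pools 1 and 2 in the 4th library, and both ratios share pools 1 and 2. The 96 were picked for a pool 3 value above pools 1 and 2, so low values there raise the count of 75. The 7530 were not picked in that way, so the 35% is not a like measure, and no conclusion is drawn from the split. The 75 had a median GC content of 56.1% in the longest transcript and the 21 had 50.9%, against 48.7% over the 7530 genes. The ratio of pool 3 to the other pools moved with GC content, from a median log2 of -0.03 at up to 40% GC to 0.28 above 60%, where 143 genes lay, and the ratio of the 4th library to pools 1 and 2 moved from -0.04 to 0.14. The part of GC content in the differences was not tested.

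**Figure D4:**
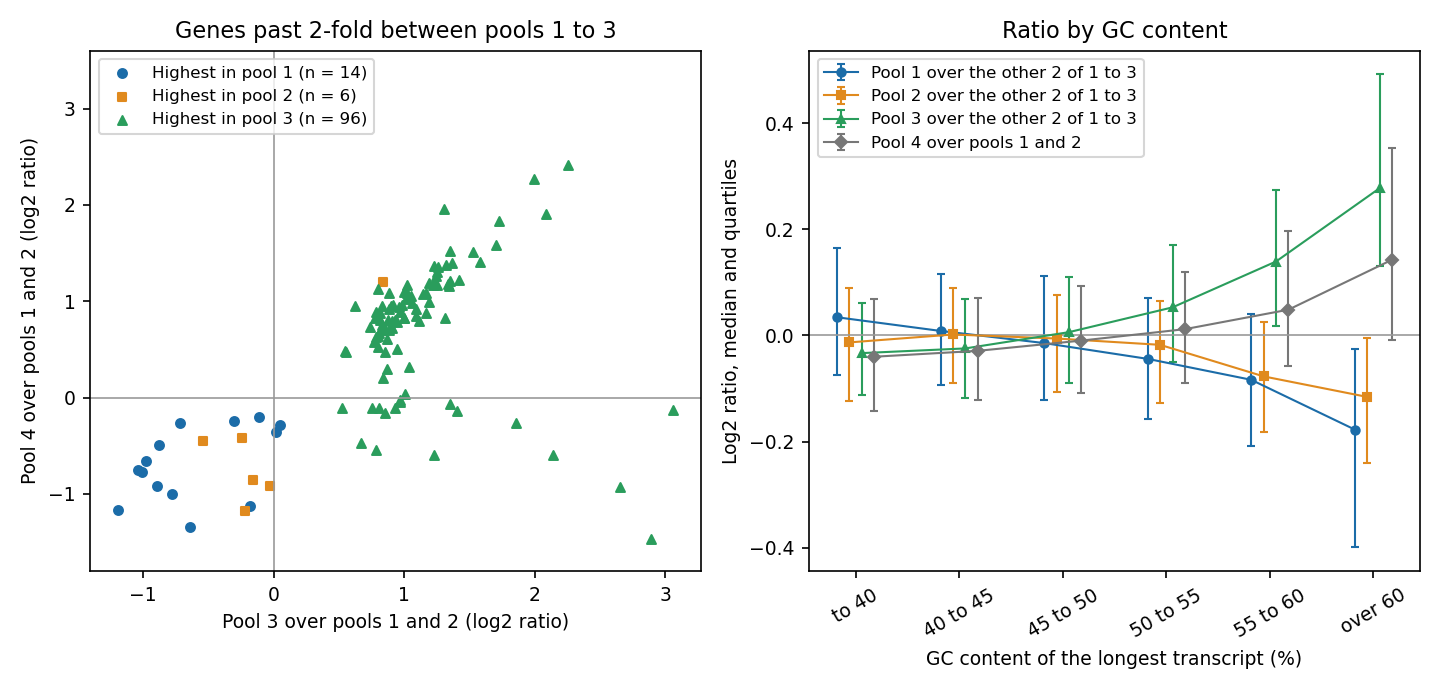
Left, log2 ratio of pool 3 (x axis) and of the left-out 4th library (y axis) to pools 1 and 2, each point 1 of 116 genes past 2-fold between pools 1 to 3 at a mean of at least 20 CPM; both axes share pools 1 and 2. Right, median log2 ratio by GC content (%), with quartiles as bars; pool 3 reaches 0.28 and the 4th library 0.14 above 60% GC.

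Pool 1 stood high for Sp8, a transcription factor gene (ENSMUSG00000048562, chromosome 12, 118846329 to 118852576), at 76.6, 19.2 and 16.3 CPM, the 8th most variable gene. The others of its 14 included Sostdc1, Spp1, Col1a1 and Postn, and 4 short ribosomal protein genes, Rps27 at 568, 419 and 237 CPM, Rps28 at 416, 308 and 177 CPM, Rps29 at 282, 226 and 127 CPM and Rpl39 at 288, 226 and 139 CPM. All 4 were lowest in pool 3. Pool 2 stood high for Zpld1, which encodes a protein of the cupula over the cristae of the semicircular canals, at 113, 405 and 209 CPM, and for Nos2, Wnt3, Lum and Hipk1. Gm47283, also among the 6 genes highest in pool 2, was about as high in pool 3, at 12.5, 43.1 and 42.5 CPM. Nos2, inducible nitric oxide synthase, stood at 13.4, 42.4 and 21.3 CPM, and Lum, a proteoglycan of fibrous tissue, at 63.9, 135 and 78.3 CPM. The genes of this paragraph other than Sp8 are examples chosen after their values were seen.

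The cell type lists did not all lie highest in the same pool. For each member the deviation of a pool is its log2(CPM + 1) less the mean of the 3 pools, and over all 15196 genes the median deviation was -0.02, -0.02 and 0.03 in pools 1, 2 and 3. Over 20 ganglion neuron genes it was -0.14, -0.25 and 0.41; 16 of the 20 were highest in pool 3, against 43.1% of all genes, and 10 passed 2-fold, 50% against 8.7% of all genes. Of these 10, 9 were highest in pool 3, against 4.65% of all genes. Low genes pass 2-fold more often, 26.3% of those at 1 to 5 CPM. Among the 10, Neurod1, Calb1, Slc17a6, Nefh and Elavl3 lay in that range, at 1.57 to 4.93 CPM on average. With 1 pool left out, the deviation was taken from the mean of the 2 pools kept, so an equal excess over the other pools gives a smaller value. On that scale the median in pool 3 was 0.32 without pool 1 and 0.30 without pool 2. Such values, here and below, are not on the same scale as those from 3 pools. The list's sum in the 4th library was 663 TPM. Skeletal muscle genes had -0.23, -0.05 and 0.26, with 11 of 14 highest in pool 3, and the value in pool 3 was 0.15 without pool 1. All 5 liver markers at 1 CPM or more, with Alb and Afp near 0, were highest in pool 3. Of these 5, 3 passed 2-fold, a share of 60% of few genes, against 8.7% of all genes. The brain list summed to 32.4, 31.8 and 43.4 TPM, and 4 of its 5 were highest in pool 3.

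Macrophage genes had -0.23, 0.27 and -0.01: 13 of 16 were highest in pool 2, against 25.6% of all genes, and none in pool 1, and 1 of 16 passed 2-fold, 6.25%, near the share of all genes. The median in pool 2 was 0.11 without pool 1. Melanocyte genes had -0.26, 0.32 and -0.04, with 6 of 9 highest in pool 2, and the value in pool 2 was 0.19 without pool 1. Of the 9, 3 passed 2-fold, 33.3% of few genes, against 8.7% of all genes and 26.3% of those at 1 to 5 CPM. Hair cell genes had 0.11, -0.09 and -0.01, with 19 of 29 highest in pool 1 against 31.3% of all genes, and 2 past 2-fold, Cdh23, highest in pool 1, and Ocm, highest in pool 2, a share of 6.9% that is near that of all genes. Otoconial and membrane genes had 0.13, -0.10 and -0.01, and 1 of 15 passed 2-fold, 6.67%. Without pool 2 the hair cell value in pool 1 was 0.07. Schwann and satellite glia genes had 0.18, -0.16 and -0.10, with 11 of 15 highest in pool 1, and 0.11 in pool 1 without pool 2. Endothelial genes, with 1 of 16 highest in pool 1, had -0.12, 0.06 and 0.18. Cell cycle genes had -0.00, 0.04 and -0.03.

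**Figure D5:**
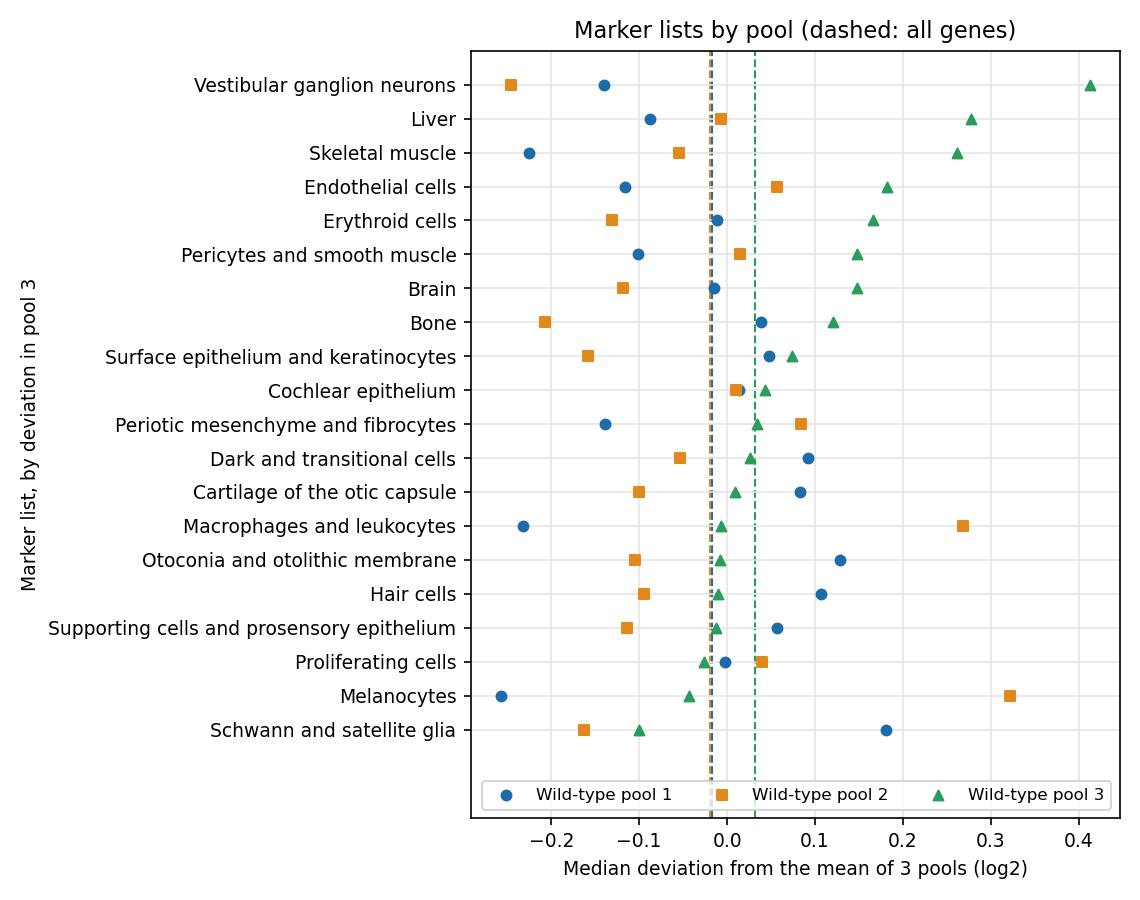
Median deviation of each cell type list's members (x axis, log2 of CPM + 1) from the mean of the 3 pools, by list (y axis) and pool (symbols); dashed lines are the medians of all 15196 genes. Ganglion neuron genes lie at 0.41 in pool 3, macrophage and melanocyte genes at 0.27 and 0.32 in pool 2.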

How the data were processed

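Utricle RNA was primed at the poly(A) tail, amplified as cDNA in 12 PCR cycles and fragmented by a transposase, per the labels' protocols. The authors deposited, per library, whole-number counts of read pairs per gene. Per the submitters' processing notes, STAR 2.5.2a, GRCm38.p4 and DESeq2 were used; their annotation is not given in the sources used here. The unstranded column was used, so overlapping and antisense genes cannot be told apart, and reads mapping to several places are not counted, so genes with near-identical copies are uncertain. Lines naming no gene held 33.9%, 30.1% and 31.3% of read pairs in pools 1, 2 and 3 and were left out.

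Of 48823 gene rows, 48349 matched GENCODE M21 (GRCm38), which gave symbols, exon lengths and positions. TPM was computed over genes with at least 200 bases of merged exons, a minimum chosen after seeing the values. Deviations use log2(CPM + 1). Spread was estimated with edgeR 4.0.16 in R 4.3.3 with TMM scaling, and tables were made with Python 3.11.15 and pandas 2.3.3. On simulated counts the estimate and the 2-fold count were checked.

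The libraries and the lists were chosen with earlier results of these data known. There were 20 cell type and 31 family or pathway lists, and 1 entry was not found. Named genes were the 25 protein-coding and 10 non-coding genes highest in TPM, the 15 highest transcription factors, the 4 highest of each cell type list and the 3 highest of each family, members below 0.5 CPM, the 12 most and least variable at 20 CPM or more, and Rest, Myo7a, Pou4f3, Atoh1, Sox2, Oc90 and Coch, with list members as examples. Some genes that this rule covers are not reported here. No test was made, since there is 1 group. Alternatives were TMM and DESeq2 1.42.0 scaling, other filters, pseudocounts, folds and lengths, and other sets of libraries.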

Additional observations from a re-analysis of the deposited data

Results flagged for a closer look

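Both flagged values come from the 4th wild-type library, which is not among the 3 pools described and is set beside them above for some genes and lists. Its summed liver markers stood at 4992 TPM, above the highest of pools 1, 2 and 3 (57.9 TPM), and its summed erythroid markers at 30571 TPM, above their highest (2981 TPM). For this flagging, none of the 3 pools was checked for standing apart, and the differences between them are described above.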

How the results depend on the processing

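No paired analysis was possible because no groups were compared. TMM or DESeq2 scaling left the leading genes, the count of markers at 1 CPM and the 20 list sums within limits. The agreement between pools, the count of genes past 2-fold and 6 list deviations also stayed within them. The limits were 1.5-fold for counts and a fixed fraction of the main value for the list deviations. For shares and list sums they were the SD between pools. For the correlation and the median ratio they were the SD of the 3 pairs of pools. For the coefficient of variation the limit was the SD of the 3 values with 1 pool left out. Single genes, families and the sets by pool were not rerun. Of the 25 leading genes, 15 stayed by CPM and 24 with any pool left out. The count of genes past 2-fold, 1322, was 554 to 829 with 1 pool left out, 399 at a mean of 5 CPM, 116 at 20 CPM (chosen after seeing the data) and 12252 with no filter; these count different sets of genes. At 1.5-fold, 3578 passed. The mean correlation between pools, 0.986, was 0.983 to 0.988 with 1 pool left out, 0.979 with the 4th library, 0.983 at 5 CPM, 0.993 with no filter and 0.98 with a pseudocount of 0.1 CPM. The mean of the median absolute log2 ratios, 0.19, was 0.18 to 0.20 with 1 pool left out, 0.16 at 5 CPM and 0.26 with no filter. The coefficient of variation, 0.17, was 0.146 to 0.191 with 1 pool left out, 0.233 with the 4th library and 0.146 at 5 CPM. The macrophage value in pool 2 was 0.11 to 0.26 with 1 other pool left out (chosen after seeing the data), on the scale of the pools kept. Different libraries or genes enter these settings, and the causes of the changes were not tested. With the longest transcript as length, 11 of 20 list sums moved by more than the spread between pools. At 1 to 5 CPM, where 26.3% of genes passed 2-fold, the median variance was 2.97 times that of counting alone, so counting error is a larger part of the spread there than at higher levels.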
